A study of Mus musculus with 12 samples.

Results

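Integrins and laminins form the attachment between kidney cells and their surroundings, and they were followed here in whole kidneys of Pod-TRECK mice after loss of podocytes. The genes were chosen by symbol, with earlier results of these data known. They are the numbered integrin alpha chains, the alpha chains d, e, l, v and x, the integrin beta chains and the laminin alpha, beta and gamma chains. Of the 36 genes of that form among the 56722 of the count table, Itga8, Lama5, Lamb2 and Lamc1 were left out, which gave 32 genes. Of these, 31 passed the filter on low counts and were tested. Itgad, a leukocyte integrin with 24 counts over all 12 libraries, did not pass. Itgam, whose symbol the choice did not take, is given only as a partner of Itgb2.

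Pod-TRECK mice carry a receptor for diphtheria toxin on podocytes, the epithelial cells that cover the glomerular capillaries, so that the toxin removes this cell type. All 4 groups had this genotype. The control group received no treatment, and the other groups received 100 ng of diphtheria toxin intraperitoneally, with kidneys taken 5, 14 or 21 days later. Each group held 3 mice, which are biological replicates per the series design text, and poly(A)-selected RNA of the whole kidney was sequenced. The promoter that drives the receptor, like age and sex, was not given in the sources used here. The kidney markers were present, with Slc34a1, Lrp2, Slc5a2 and Cubn of the proximal tubule at 6790 CPM in sum in the median control. The libraries held between 31023852 and 46420299 counts.

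Integrins are receptors made of 1 alpha and 1 beta chain. They bind matrix proteins or other cells outside the cell and link to actin inside it, or, with the chain Itgb4, to keratin filaments in hemidesmosomes. Laminins are trimers of an alpha, a beta and a gamma chain that polymerise into the basement membranes under tubules and around vessels, and the integrins that hold Itga3, Itga6 or Itga7 are their main receptors. Epithelia of the kidney use mostly integrins built on Itgb1 and alpha v, whereas those built on Itgb2 and Itgb7 belong to leukocytes.

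Day-21 replicate 2 stood apart from its group. It lay at -36.8 on the first principal component of all tested genes, next to the day-5 libraries at -44.5 to -37.4, while the other day-21 libraries lay at 73 and 80.1. Fold changes at day 21 are therefore also given without it. The spread was estimated over all groups together, so the choice to keep this library also bears on the standard errors at days 5 and 14, and the counts of called genes over all members and over the lists are given both ways. Levels are CPM (counts scaled to a common library total) on TMM-scaled library sizes, and differences are log2 fold changes with the standard error of the edgeR fit, called at an adjusted p under 0.05. The number of libraries was 3 per group throughout. Scaling to library totals alone raised the median log2 fold change of all tested genes to 0.804 at day 14, 0.552 at day 21 and 0.147 at day 5, against 0.0766, 0.0671 and 0.00351 with TMM factors, so that directions are relative to the TMM scale. In whole tissue, a lower share of a cell type and less RNA per cell cannot be told apart.

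In kidneys without toxin the levels per kilobase of gene length spanned several orders of magnitude. Itgb1, the beta chain shared by most matrix-binding integrins, was the highest, at 56.3 ± 1.7 CPM per kilobase (SD, n = 3). It was followed by Itgb5 at 23.5 ± 0.59 and Itgb8 at 21 ± 2.86 CPM per kilobase, whose ranges over libraries overlapped. Next came the laminin chain Lamb1 at 12.05 ± 0.688, then Itgav at 10.3 ± 0.839, Itgb6 at 9.27 ± 2.63, Itga6 at 6.52 ± 0.76 and Itga1 at 5.99 ± 0.193 CPM per kilobase, among which each overlapped the next except Lamb1, which lay above Itgav in every library. The leukocyte chain Itgb2 ranked 16 at 0.942 ± 0.186 CPM per kilobase, and Itga11 and Itgad were the lowest. At day 14 Itgb1 was still first, at 99.1 ± 3.22 CPM per kilobase, Itgav had moved to the third place at 29.5 ± 1.19, Itgb8 to the sixth at 15.1 ± 1.61 and Itgb2 to the eleventh at 6.39 ± 0.623 CPM per kilobase.

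Most of the genes rose after toxin, few by day 5 and most by day 14. At day 5, 6 of 31 rose and 1 fell (Lamc3), against 9.77% of all tested genes that rose and 5.09% that fell. Omitting day-21 replicate 2 gave counts of 12 and 2, against 17.4% and 14.9% of all genes. At day 14, 24 of 31 rose and 3 fell, or 77.4% and 9.68%, where 31.2% of all tested genes rose and 28.8% fell, and the counts were again 24 and 3 with day-21 replicate 2 left out, against 34.7% and 30.9% of all genes. The median log2 fold change of the 31 genes was 1.08 at day 14, beside 0.0766 for all tested genes. At day 21, 20 rose and 5 fell, where 24.3% of all tested genes rose and 18.5% fell, and the median was 0.629 beside 0.0671. With that library left out, the day-21 counts were 21 and 6, against 33.2% and 28.4% of all genes. Scaled to library totals alone, the split at day 21 was 24 rises and 2 falls. A fit of only the 6 libraries of day 21 and control gave 6 rises and 2 falls, and 16 of the 25 calls at day 21 survived the omission of any 1 library compared. At day 14, 23 of the 27 calls did so, and at day 5, 4 of the 7. The groups did not overlap for 16 of the 31 genes at day 5, 27 at day 14 and 21 at day 21, where 49%, 72.9% and 45.2% of all tested genes did not. The 3 comparisons share the control libraries.

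**Figure D1:**
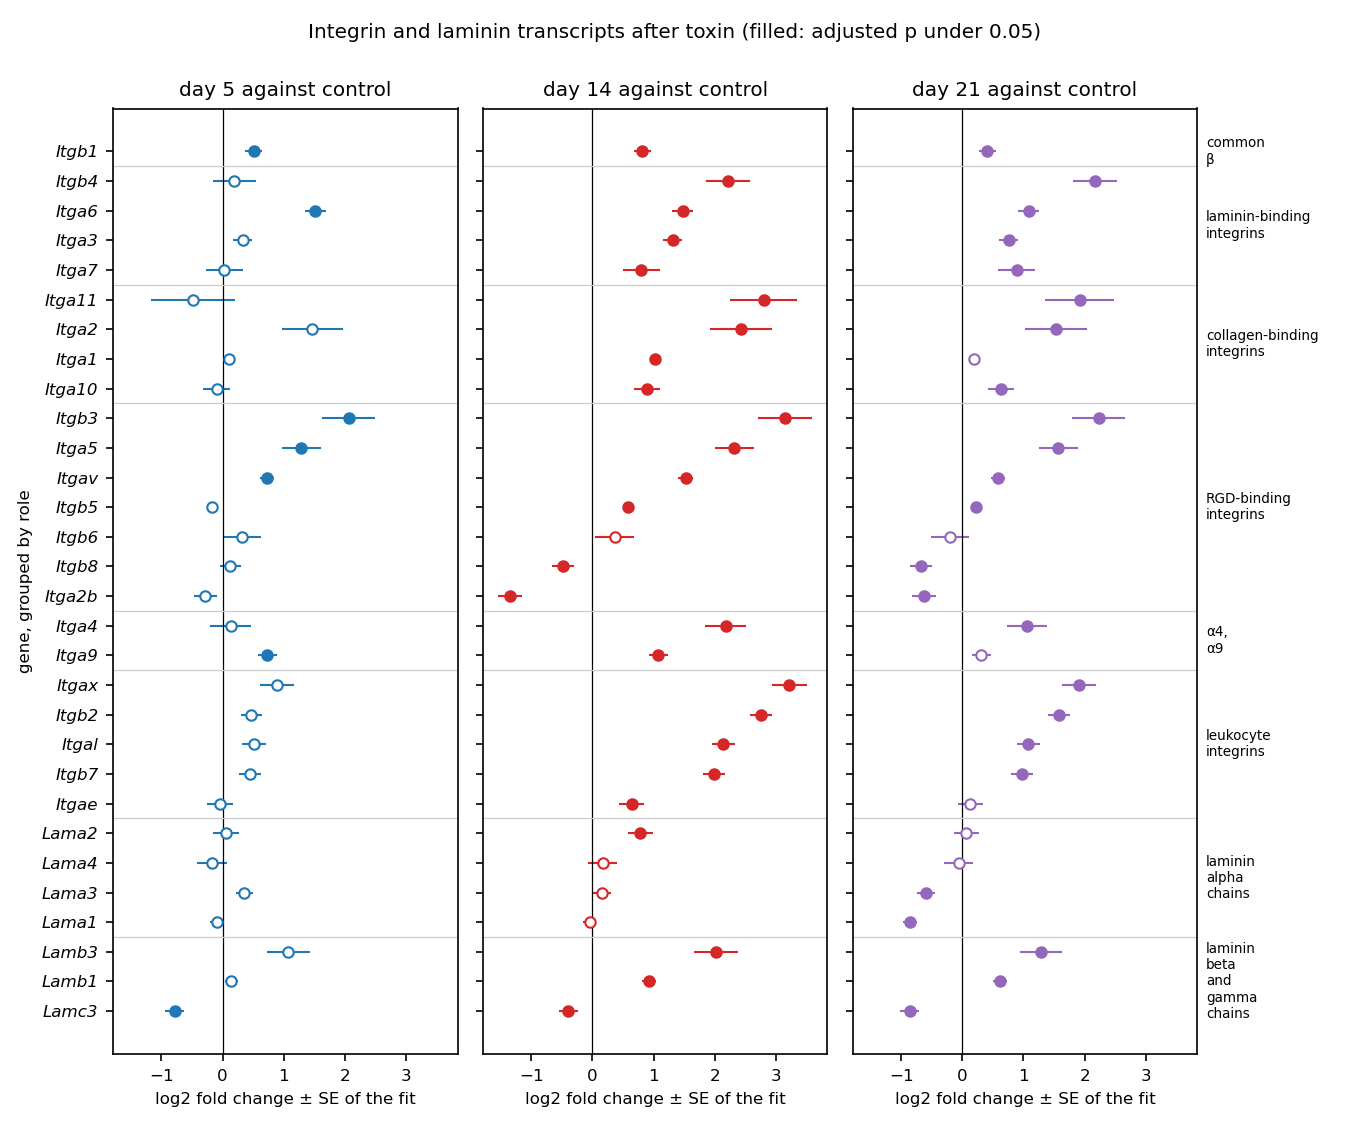
Log2 fold changes against control (x axis, bars are the standard error of the fit) of tested genes, grouped by role, at days 5, 14 and 21, with filled points for an adjusted p under 0.05. At day 14 Itgax lies farthest to the right, at 3.22, and Itga2b farthest to the left, at -1.34.

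The intervals between the days were tested directly. From day 5 to day 14, 19 genes rose and 2, Itga2b and Itgb8, fell, where 24.7% of all tested genes rose and 26.1% fell. These counts became 23 and 2 when day-21 replicate 2 was left out, where 29.5% and 30.1% of all genes did. Between day 14 and day 21 the direction turned, with 13 genes lower at day 21 and 1, Itga2b, higher, where 7.57% of all tested genes were lower and 7.03% higher. In the absence of day-21 replicate 2, 18 were lower and 2, Itga7 among them, higher, where 11.4% and 12.5% of all genes were. Of the calls between days 5 and 14, 15 of 21 survived the omission of any 1 library compared, and of those between days 14 and 21, 9 of 14. The groups did not overlap for 26 genes in the first interval and 22 in the second, where 70.9% and 32.5% of all tested genes did not.

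Of the 4 laminin-binding integrin genes, all rose at days 14 and 21 and 1 at day 5, with Itga3 as a second at day 5 when day-21 replicate 2 was left out. Of all tested genes, 31.2% rose at day 14, 24.3% at day 21 and 9.77% at day 5, or 17.4% at day 5 without that library. Itga6, the alpha chain of the hemidesmosome integrin and of a widespread laminin receptor, had 66.8, 80.7 and 65.9 CPM in controls, 223, 184 and 205 CPM at day 5, 199, 197 and 198 CPM at day 14, and 166, 108 and 178 CPM at day 21. All toxin libraries lay above all controls, and day-21 replicate 2 was the lowest of them. Itga6 rose by 1.52 ± 0.17 at day 5 (adjusted p = 0.000239) and by 1.48 ± 0.17 at day 14 (adjusted p = 6.35e-05), and day 14 against day 5 was at -0.04 ± 0.17 (adjusted p = 0.851), or 0.55 under library totals alone (adjusted p = 0.0577). At day 21 it rose by 1.08 ± 0.17 (adjusted p = 0.00153), and by 1.26 without day-21 replicate 2.

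Itgb4, which pairs with Itga6 alone and anchors hemidesmosomes, rose later. Its levels were 3.71, 4.64 and 4.2 CPM in controls, 4.19, 4.84 and 5.31 CPM at day 5, 19.2, 19.4 and 19.9 CPM at day 14, and 22.1, 7.44 and 27.1 CPM at day 21. The day-5 libraries overlapped the controls, and those of days 14 and 21 lay above them. The log2 fold change was 0.2 ± 0.36 at day 5 (adjusted p = 0.767), 2.22 ± 0.36 at day 14 (adjusted p = 0.000439) and 2.18 ± 0.36 at day 21 (adjusted p = 0.00199), and 2.55 at day 21 without replicate 2. Day 14 exceeded day 5 by 2.02 ± 0.36 (adjusted p = 0.00126).

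Itga3, the alpha chain of the main laminin receptor of podocytes and of collecting duct cells, had 32.2, 33.7 and 32.1 CPM in controls, 36.8, 41.4 and 45.1 CPM at day 5, 81, 81.7 and 81 CPM at day 14 and 61.6, 39.6 and 64.3 CPM at day 21. Every toxin library was above every control. It was at 0.33 ± 0.15 at day 5 (adjusted p = 0.178, and 0.00319 without day-21 replicate 2), and rose by 1.31 ± 0.15 at day 14 (adjusted p = 7.18e-05) and by 0.76 ± 0.15 at day 21 (adjusted p = 0.00468), or 0.94 without replicate 2. Itga7, best known as a laminin receptor of muscle, rose by 0.8 ± 0.3 at day 14 and 0.89 ± 0.3 at day 21. Its calls were lost without any 1 of the 6 libraries compared at day 14 (adjusted p up to 0.126) and without any but replicate 2 of day 21 at day 21 (up to 0.152). Without day-21 replicate 2 the rises were 0.79 (adjusted p = 6.48e-05) and 1.22 (adjusted p = 4.84e-06).

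Itgb1 had 246, 259 and 259 CPM in controls, 345, 364 and 378 CPM at day 5, 457, 456 and 431 CPM at day 14, and 408, 272 and 334 CPM at day 21, with no overlap between any toxin group and the controls. It rose by 0.51 ± 0.14 at day 5 (adjusted p = 0.0285), by 0.82 ± 0.14 at day 14 (adjusted p = 0.000513) and by 0.41 ± 0.14 at day 21 (adjusted p = 0.0328), or 0.53 without replicate 2. The day-5 call was lost without any 1 of the 6 libraries compared (adjusted p up to 0.124), and the day-21 call without any of them but day-21 replicate 2 (up to 0.115). Without day-21 replicate 2 the adjusted p was 0.000382 at day 5 and 0.000185 at day 21.

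**Figure D2:**
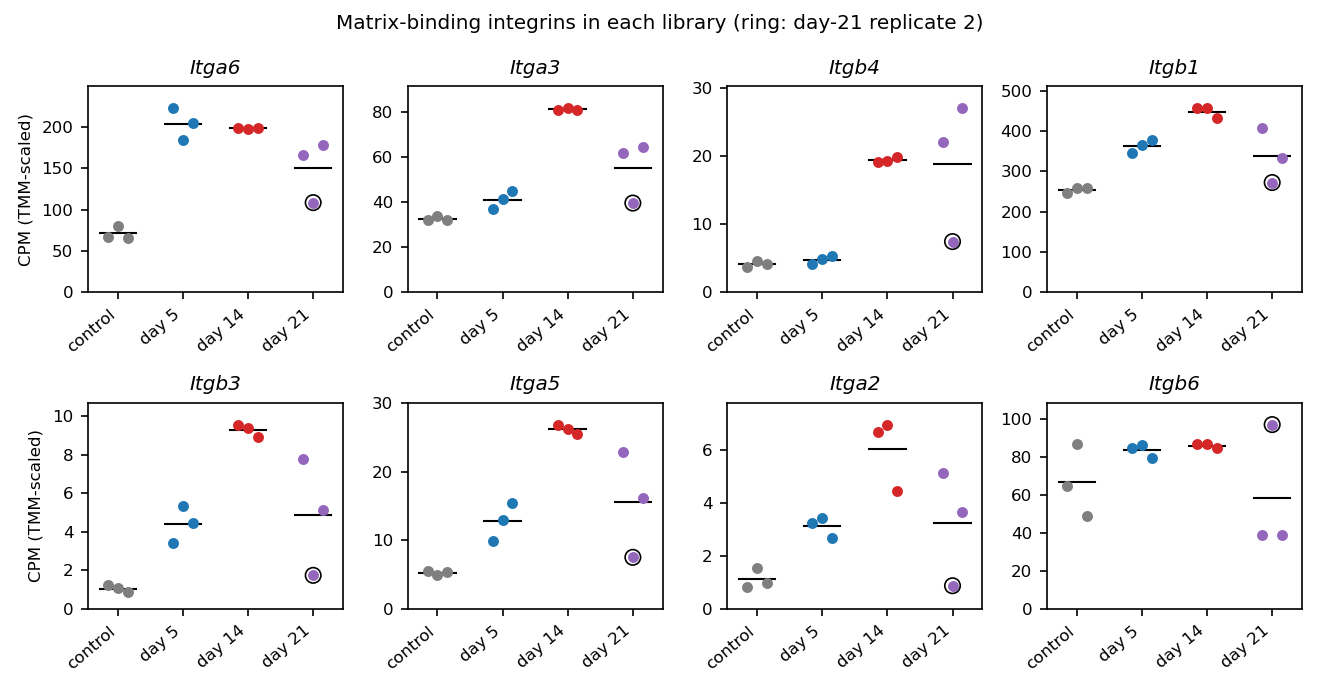
CPM on TMM-scaled library sizes (y axis) of 8 matrix-binding integrin genes in each library of the 4 groups (x axis), with the group mean as a line and a ring around day-21 replicate 2. Itga6 is already high at day 5, at 184 to 223 CPM, while Itgb4 stays at 4.19 to 5.31 CPM at day 5 and lies at 19.2 to 19.9 CPM at day 14.

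The 4 collagen-binding alpha chains, which all pair with Itgb1, rose at day 14, where 31.2% of all tested genes rose. Itga2, a collagen receptor of epithelium and platelets, had 0.83, 1.54 and 0.987 CPM in controls, 3.23, 3.41 and 2.68 CPM at day 5, 6.67, 6.94 and 4.45 CPM at day 14, and 5.11, 0.866 and 3.66 CPM at day 21. The libraries of days 5 and 14 lay above all controls, and day-21 replicate 2 lay among the controls. It rose by 2.43 ± 0.5 at day 14 (adjusted p = 0.00184) and by 1.53 ± 0.5 at day 21 (adjusted p = 0.0311), or 1.96 without replicate 2. At day 5 it was at 1.47 ± 0.5 (adjusted p = 0.0745, and 0.00117 without day-21 replicate 2). The day-21 call was lost without control replicate 1 or 3 or day-21 replicate 1 or 3 (adjusted p up to 0.132).

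Itga1, the most abundant of the collagen receptors per length, had 123, 130 and 125 CPM in controls, 127, 141 and 139 CPM at day 5, 271, 250 and 248 CPM at day 14, and 149, 135 and 149 CPM at day 21. Day 14 lay above every library of the other groups, and day 21 lay above the controls. It rose by 1.03 ± 0.09 (adjusted p = 1.17e-05) at day 14, while day 21 was at 0.2 ± 0.09 (adjusted p = 0.0859, and 0.0118 without replicate 2). Day 21 was lower than day 14 by a log2 fold change of -0.83 ± 0.09 (adjusted p = 0.00079), or -0.79 without replicate 2. Itga11, a collagen receptor of fibroblasts, had 2, 4 and 11 counts in controls, 4, 6 and 3 at day 5, 77, 47 and 41 at day 14, and 42, 10 and 26 at day 21. It rose by 2.8 ± 0.55 at day 14 (adjusted p = 0.00129) and by 1.92 ± 0.56 at day 21 (adjusted p = 0.021), or 2.21 without replicate 2, with overlapping CPM at day 21. The day-21 call was lost without control replicate 1 or 2 or day-21 replicate 1 (adjusted p up to 0.0847). Itga10, a collagen receptor of cartilage, rose by 0.89 ± 0.21 at day 14 and by 0.63 ± 0.22 at day 21, or 0.8 without replicate 2. The day-21 call was lost without any library compared other than day-21 replicate 2 (adjusted p up to 0.124). The 4 fibroblast and myofibroblast markers Pdgfra, Pdgfrb, Acta2 and Col1a1 summed to 76.8 to 112 CPM in controls, 132 to 195 at day 5, 440 to 478 at day 14 and 129 to 413 at day 21. All 4 were called higher at day 14 and 1 at day 5, beside 31.2% and 9.77% of all tested genes. Without day-21 replicate 2 these counts were 4 and 3, beside 34.7% and 17.4%. None of these markers was at 0, and their part in the rises of the collagen-binding chains was not tested.

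Among the 7 chains that bind the RGD motif of fibronectin, vitronectin and latent TGF-beta, 3 rose at every time and 2 fell at days 14 and 21. Rises were called for 42.9% at day 5 and 57.1% at days 14 and 21, beside 9.77%, 31.2% and 24.3% of all tested genes. The 2 falls, 28.6%, lie beside 28.8% of all tested genes at day 14 and 18.5% at day 21, so that the falls at day 14 were near the background. Itgb3, the beta chain of the vitronectin receptor, had 1.22, 1.05 and 0.864 CPM in controls, 3.4, 5.31 and 4.44 CPM at day 5, 9.56, 9.4 and 8.93 CPM at day 14, and 7.77, 1.73 and 5.14 CPM at day 21, all above the controls. It rose by 2.07 ± 0.43 at day 5 (adjusted p = 0.00898), by 3.15 ± 0.44 at day 14 (adjusted p = 0.000185) and by 2.23 ± 0.43 at day 21 (adjusted p = 0.0039), or 2.61 without replicate 2. Its further rise from day 5 to day 14, 1.08 ± 0.39 (adjusted p = 0.0386), was lost without any 1 of the 6 libraries compared (adjusted p up to 0.127).

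Itga5, the alpha chain of the classical fibronectin receptor, had 5.48, 4.94 and 5.31 CPM in controls, 9.96, 12.9 and 15.5 CPM at day 5, 26.9, 26.3 and 25.6 CPM at day 14, and 23, 7.51 and 16.2 CPM at day 21. No toxin library reached down to the controls. It rose by 1.29 ± 0.32 at day 5 (adjusted p = 0.0196), by 2.32 ± 0.32 at day 14 (adjusted p = 0.000177) and by 1.57 ± 0.32 at day 21 (adjusted p = 0.00453), or 1.89 without replicate 2. The day-5 call was lost without any 1 of the control replicates or day-5 replicate 2 or 3 (adjusted p up to 0.0835), and was at 0.00012 without day-21 replicate 2. The rise from day 5 to day 14, 1.04 ± 0.3 (adjusted p = 0.0158), was lost without day-5 replicate 1 (adjusted p = 0.0645).

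Itgav, the alpha v chain, had 137, 125 and 147 CPM in controls, 225, 215 and 237 CPM at day 5, 407, 393 and 376 CPM at day 14, and 219, 174 and 219 CPM at day 21, again without overlap with the controls. It rose by 0.73 ± 0.12 at day 5 (adjusted p = 0.00193), by 1.52 ± 0.12 at day 14 (adjusted p = 6.47e-06) and by 0.58 ± 0.11 at day 21 (adjusted p = 0.0042), or 0.68 without replicate 2. Day 21 was lower than day 14 by a log2 fold change of -0.94 ± 0.12 (adjusted p = 0.00124), or -0.84 without replicate 2.

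Among the beta chains available to alpha v, Itgb8 and Itgb5 moved apart. Itgb8, which with alpha v activates latent TGF-beta, had 233, 233 and 292 CPM in controls, 291, 270 and 266 CPM at day 5, 197, 187 and 160 CPM at day 14 and 146, 204 and 124 CPM at day 21. It fell by 0.48 ± 0.18 at day 14 (adjusted p = 0.0342), with all 3 libraries below the controls, but was at 0.25 under library totals alone, and the call was lost without control replicate 3 or day-14 replicate 2 or 3 (adjusted p up to 0.119). At day 21 it fell by 0.68 ± 0.18 (adjusted p = 0.013), and by 0.91 without replicate 2. Day 14 was below day 5 by a log2 fold change of -0.61 ± 0.18 (adjusted p = 0.0147), a call lost without day-14 replicate 3 (adjusted p = 0.0595). Itgb5, another vitronectin-binding chain, was at -0.17 ± 0.08 at day 5 (adjusted p = 0.191, and 0.049 without day-21 replicate 2), and rose by 0.58 ± 0.08 at day 14 (adjusted p = 0.00022) and by 0.22 ± 0.08 at day 21 (adjusted p = 0.0492), or 0.27 without replicate 2. The day-21 call was lost without any library compared other than day-21 replicate 2 (adjusted p up to 0.194).

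Itgb6, a TGF-beta-activating chain of epithelia, varied in controls, with 64.6, 86.7 and 49 CPM. It had 84.6, 86.1 and 79.3 CPM at day 5, 86.7, 86.5 and 84.4 CPM at day 14, and 38.7, 96.9 and 38.8 CPM at day 21. Day-21 replicates 1 and 3 lay below all other libraries and replicate 2 above all. No comparison with control was called in the fit of all libraries (day 21 at -0.2 ± 0.32, adjusted p = 0.621), and without replicate 2 it fell by 0.79 at day 21 (adjusted p = 0.00173).

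Within a library, the mix of the 4 beta chains Itgb3, Itgb5, Itgb6 and Itgb8 does not depend on the scaling between libraries. Per kilobase, Itgb8 made up 38.9 ± 4.54% of their sum in control kidneys, 40.9 ± 1.28% at day 5, 23.6 ± 1.71% at day 14 and 26.3 ± 3.47% at day 21 (SD, n = 3), where replicate 2 was at 30.3% and the others at 24.5% and 24%. Its highest day-14 library was at 25% and its lowest control library at 35.1%. Itgb5 made up 43.6 ± 0.901% in control kidneys, 37.2 ± 1.2% at day 5, 55.1 ± 1.33% at day 14 and 56.2 ± 9.5% at day 21, where replicate 2 was at 45.2% and the others at 61.9% and 61.4%. Itgb3 had 0.33 ± 0.0681% in control kidneys, 1.33 ± 0.302% at day 5, 2.48 ± 0.00982% at day 14 and 1.74 ± 1.1% at day 21, where replicate 2 was at 0.523% and the others at 2.66% and 2.03%. The day-14 ranges of Itgb3, Itgb5 and Itgb8 did not overlap those of the controls, while that of Itgb6 lay inside its control range. Without division by length, the share of Itgb8 was 44.6% at day 14 and 61.9% in controls, and that of Itgb5 was 31.9% at day 14 and 21.3% in controls. Itgb1, which also pairs with alpha v, was left out of these shares, which are given as values and were not tested.

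**Figure D3:**
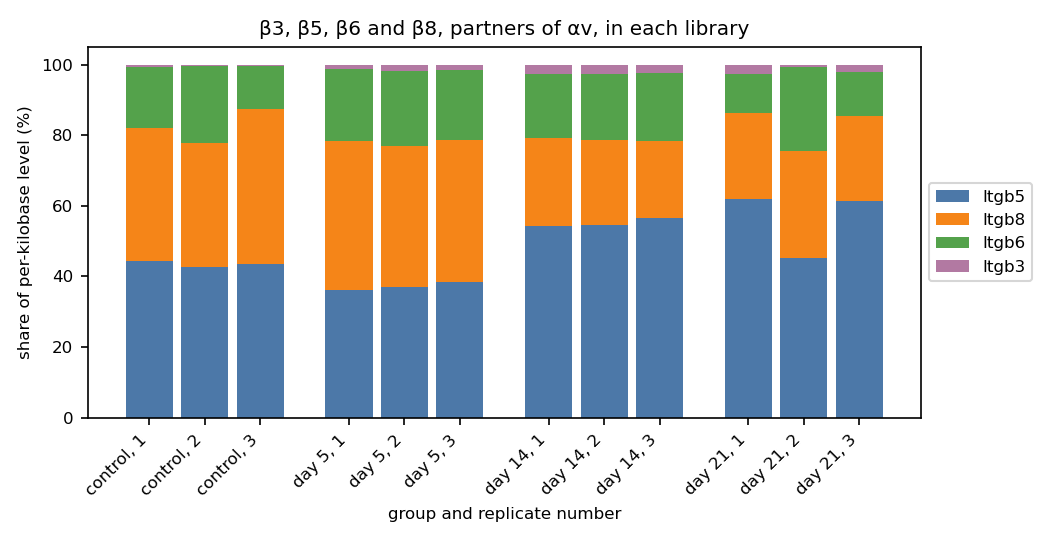
Share of each of 4 beta chains in their summed CPM per kilobase (y axis, percent) in each library (x axis, group and replicate number). At day 14 Itgb5 takes 54.2 to 56.7% and Itgb8 21.7 to 25%, against 42.7 to 44.5% and 35.1 to 43.9% in controls.

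Itga2b, the alpha chain of the platelet fibrinogen receptor, ran against its partner Itgb3. It had 3.56, 3.85 and 3.42 CPM in controls, 3, 3.16 and 2.77 CPM at day 5, 1.18, 1.5 and 1.61 CPM at day 14, and 2.18, 2.95 and 1.9 CPM at day 21, and all toxin libraries lay below all controls. It fell by 1.34 ± 0.19 at day 14 (adjusted p = 0.000229) and by 0.63 ± 0.19 at day 21 (adjusted p = 0.0235), or 0.83 without replicate 2. The day-21 call was lost without control replicate 2 or day-21 replicate 1 or 3 (adjusted p up to 0.0867). The higher level at day 21 than at day 14, 0.71 ± 0.19 (adjusted p = 0.0348), was lost without any 1 day-14 library or without day-21 replicate 2 (adjusted p up to 0.129). The 5 platelet markers Pf4, Ppbp, Gp9, Gp1bb and Gp6 summed to 0.813 to 1.17 CPM in controls, 1.45 to 1.87 at day 5, 4.28 to 4.77 at day 14 and 1.44 to 5.28 at day 21. Gp6 was at 0 in all controls, Pf4 and Gp1bb were called higher at day 14 and Ppbp was not, while 31.2% of all tested genes rose.

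All 5 leukocyte integrins that were tested rose at day 14, and 4 of them were lower at day 21 than at day 14. Of all tested genes, 31.2% rose at day 14 and 7.57% were lower at day 21 than at day 14. Itgax, the alpha chain CD11c of dendritic cells and macrophages, had 2.02, 2.68 and 1.39 CPM in controls, 3.73, 3.97 and 3.64 CPM at day 5, 19.1, 18.7 and 18.8 CPM at day 14, and 11, 5.2 and 6.51 CPM at day 21. All toxin libraries lay above the controls. It was at 0.9 ± 0.28 at day 5 (adjusted p = 0.0542, and 0.0114 without day-21 replicate 2), and rose by 3.22 ± 0.29 at day 14 (adjusted p = 1.52e-05) and by 1.9 ± 0.28 at day 21 (adjusted p = 0.00119), or 2.1 without replicate 2.

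Itgb2, the beta chain of all alpha d, l, m and x integrins, had 2.76, 3.49 and 2.38 CPM in controls, 3.59, 4.3 and 4.08 CPM at day 5, 19, 17.9 and 21.6 CPM at day 14, and 10.3, 7.25 and 8.22 CPM at day 21. No toxin group overlapped the controls. It rose by 2.76 ± 0.18 at day 14 (adjusted p = 2.76e-06) and by 1.58 ± 0.17 at day 21 (adjusted p = 0.000319), or 1.68 without replicate 2, and was at 0.47 ± 0.17 at day 5 (adjusted p = 0.0949, and 0.0364 without that library). Day 21 was lower than day 14 by a log2 fold change of -1.18 ± 0.16 (adjusted p = 0.0022), or -1.07 without replicate 2. Its partner Itgam, the chain CD11b of monocytes, macrophages and neutrophils, had 23.3, 23.8 and 23.6 CPM at day 14, against 0.949, 1.69 and 0.864 CPM in controls. Itgam rose by 1.78 ± 0.449 at day 5 (adjusted p = 0.0228) and by 4.33 ± 0.465 at day 14 (adjusted p = 4.32e-05). At day 21 its rise was 3.045 ± 0.451 (adjusted p = 0.00125), or 3.41 without replicate 2.

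Itgal, which forms the lymphocyte receptor for Icam1, had 1.27, 1.72 and 1.26 CPM in controls, 2.18, 2.21 and 1.71 CPM at day 5, 5.96, 6.65 and 6.16 CPM at day 14, and 3.56, 2.82 and 2.61 CPM at day 21. Days 14 and 21 lay above all controls, and 1 day-5 library lay among them. It rose by 2.14 ± 0.19 at day 14 (adjusted p = 1.46e-05) and by 1.08 ± 0.19 at day 21 (adjusted p = 0.0025). Itgb7, the beta chain of gut-homing and intraepithelial lymphocytes, had 1.13, 1.6 and 1.14 CPM in controls, 1.52, 2.04 and 1.71 CPM at day 5, 4.9, 5.2 and 5.23 CPM at day 14, and 2.44, 2.57 and 2.61 CPM at day 21. Only day 5 overlapped the controls. It rose by 1.99 ± 0.18 at day 14 (adjusted p = 1.59e-05) and by 0.98 ± 0.18 at day 21 (adjusted p = 0.00302). Its partner Itgae, which binds E-cadherin on epithelium, rose by 0.64 ± 0.2 at day 14 (adjusted p = 0.0186) and was at 0.13 ± 0.21 at day 21 (adjusted p = 0.628). The day-14 call of Itgae was lost without control replicate 2 or day-14 replicate 2 (adjusted p up to 0.0953). Without day-21 replicate 2 the day-21 rises were 1.11 for Itgal and 0.96 for Itgb7, and Itgae was at 0.1. Day 21 against day 14 was at -0.51 ± 0.2 for Itgae (adjusted p = 0.107), or -0.54 without replicate 2.

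Itga4, whose integrins bind Vcam1 and fibronectin on leukocytes, had 3.29, 2.2 and 2.13 CPM in controls, 3.3, 2.85 and 2.24 CPM at day 5, 12, 10.7 and 12 CPM at day 14, and 8.62, 3.59 and 3.62 CPM at day 21. It rose by 2.18 ± 0.33 at day 14 (adjusted p = 0.000308) and by 1.06 ± 0.33 at day 21 (adjusted p = 0.026), or 1.26 without replicate 2. The day-21 value rested on replicate 1, without which it was 0.5 (adjusted p = 0.0991), and the call was also lost without control replicate 2 or 3. Day 21 was lower than day 14 by a log2 fold change of -1.12 ± 0.32 (adjusted p = 0.0391), or -0.92 without replicate 2, a call lost without any 1 day-14 library or day-21 replicate 3 (adjusted p up to 0.108). Itga9, a tenascin and osteopontin receptor, had 12.8, 11.8 and 13.5 CPM in controls, 18.2, 22.1 and 23 CPM at day 5, 27.2, 26.8 and 26.5 CPM at day 14, and 20, 14.8 and 12.5 CPM at day 21. It rose by 0.73 ± 0.16 at day 5 (adjusted p = 0.0095, and 0.0521 without control replicate 2) and by 1.08 ± 0.16 at day 14 (adjusted p = 0.000227), and was at 0.31 ± 0.16 at day 21 (adjusted p = 0.123) with overlap, or 0.35 without replicate 2.

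Markers of several leukocyte types moved with these genes at day 14, those of B cells excepted. Of all tested genes, 31.2% rose at day 14, or 34.7% without day-21 replicate 2. The macrophage and monocyte markers Adgre1, Csf1r, Cd68 and Ccr2 summed to 50.4 to 63.7 CPM in controls, 44.1 to 47.1 at day 5, 205 to 219 at day 14 and 76.9 to 98.8 at day 21, with 4 of 4 called higher at day 14. At day 5, when that sum lay below all controls, Csf1r, the receptor for macrophage colony-stimulating factor, fell by 0.68 ± 0.1 (adjusted p = 0.00161) and the lysosomal protein gene Cd68 rose by 1.53 ± 0.35 (adjusted p = 0.0141). The dendritic cell markers Flt3, Xcr1 and Clec9a summed to 1.3 to 1.78 CPM in controls, 2.18 to 2.19 at day 5, 4.84 to 6.21 at day 14 and 1.67 to 3.18 at day 21, with 3 of 3 called higher at day 14. The T cell markers Cd3e, Cd3g, Cd4 and Cd8a summed to 1.27 to 2.29 CPM in controls, 1.79 to 2.41 at day 5, 5.4 to 6.13 at day 14 and 2.51 to 3.56 at day 21, with 3 of 4 called higher at day 14, and 4 of 4 without day-21 replicate 2. The neutrophil markers S100a8, S100a9, Csf3r and Cxcr2 summed to 0.271 to 0.415 CPM in controls, 0.923 to 1.76 at day 5, 4.61 to 5.6 at day 14 and 1.67 to 3.36 at day 21. All 3 that were tested were called higher at day 14, and already at day 5, when 9.77% of all tested genes rose. In the fit of all libraries, no tested T cell, dendritic cell or B cell marker was called at day 5. The B cell markers Cd79a and Ms4a1 summed to 0.216 to 0.623 CPM in controls, 0.264 to 0.434 at day 5, 0.116 to 0.27 at day 14 and 0.0705 to 0.385 at day 21, and Cd79a, the one that passed the filter, was at -1.49 ± 0.78 at day 14 (adjusted p = 0.119). No marker of these lists was at 0 in a whole group, and their part in the rises of the integrins was not tested.

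**Figure D4:**
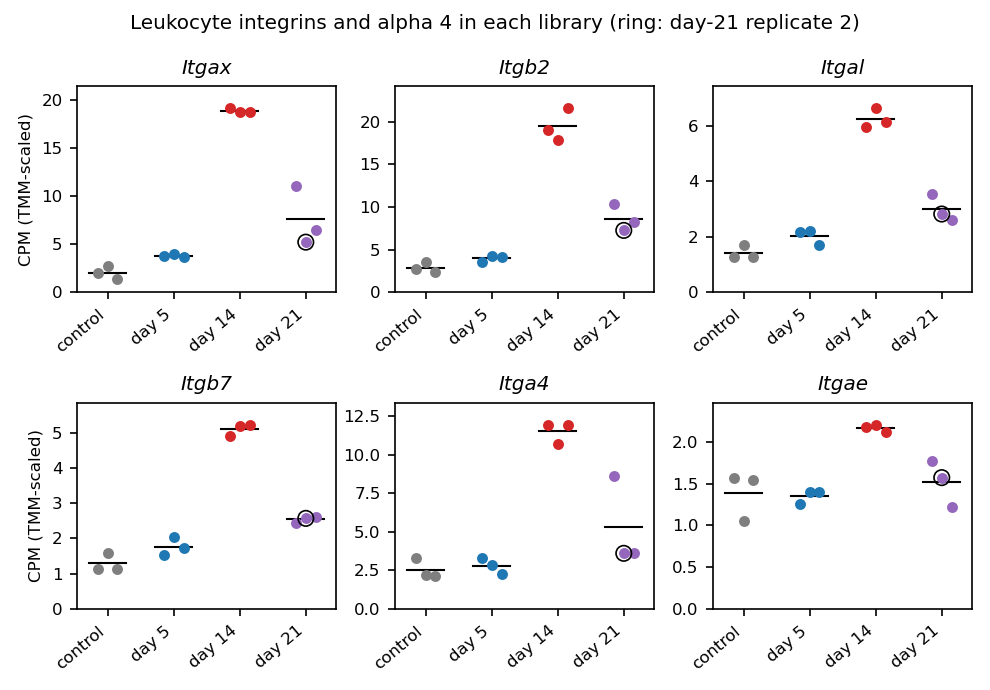
CPM on TMM-scaled library sizes (y axis) of 6 integrin genes of leukocytes in each library of the 4 groups (x axis), with the group mean as a line and a ring around day-21 replicate 2. The 3 day-14 libraries of Itgax lie at 18.7 to 19.1 CPM, above all day-21 libraries at 5.2 to 11 CPM and all controls at 1.39 to 2.68 CPM.

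Among the laminin chains, the beta chains Lamb1 and Lamb3 rose at days 14 and 21, whereas of the 4 alpha chains 1 rose at day 14 and 2 fell at day 21. For the alpha chains these are 25% that rose, near the 31.2% of all tested genes, and 50% that fell, beside 18.5%. Lamb3, a beta chain of epithelial laminins, had 2.22, 4.55 and 2.22 CPM in controls, 5.57, 7.02 and 6.32 CPM at day 5, 13.1, 11.9 and 11.6 CPM at day 14, and 8.2, 3.69 and 9.96 CPM at day 21. Day-21 replicate 2 lay within the control range and all other toxin libraries above it. It was at 1.07 ± 0.35 at day 5 (adjusted p = 0.0646, and 0.00438 without day-21 replicate 2), and rose by 2.02 ± 0.35 at day 14 (adjusted p = 0.000673) and by 1.29 ± 0.35 at day 21 (adjusted p = 0.0157), or 1.59 without replicate 2. The day-21 call was lost without control replicate 1 or 3 or day-21 replicate 3 (adjusted p up to 0.0665). That of the higher level at day 14 than at day 5, 0.95 ± 0.34, was lost without any 1 of the 6 libraries compared (adjusted p up to 0.11).

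Lama3, an alpha chain of epithelial basement membranes, moved otherwise. It had 24.6, 32.8 and 26 CPM in controls, 30.3, 40.1 and 36.1 CPM at day 5, 33.9, 29.9 and 29.1 CPM at day 14, and 19.1, 20.3 and 15.8 CPM at day 21. Only day 21 did not overlap the controls, and it lay below them in all 3 libraries, replicate 2 included. It was at 0.35 ± 0.14 at day 5 (adjusted p = 0.123) and 0.16 ± 0.14 at day 14 (adjusted p = 0.355), and fell by 0.6 ± 0.14 at day 21 (adjusted p = 0.00939), or by 0.68 without replicate 2. Day 21 was lower than day 14 by a log2 fold change of -0.75 ± 0.14 (adjusted p = 0.00853), or -0.83 without replicate 2.

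Lama1, the laminin alpha chain of the embryo that adult kidney keeps in proximal tubule basement membranes, was also below its controls at day 21. It had 17.3, 19.5 and 19.1 CPM in controls, 15.1, 19.1 and 18.5 CPM at day 5, 19.5, 17.9 and 16.6 CPM at day 14, and 9.56, 11.4 and 9.75 CPM at day 21. It fell by 0.86 ± 0.12 at day 21 (adjusted p = 0.000754), and by 0.95 without replicate 2. At day 14 it was at -0.05 ± 0.11 (adjusted p = 0.733), but rose by 0.68 under library totals alone (adjusted p = 0.000586). Lama2, the chain of muscle and interstitial basement membranes, rose by 0.78 ± 0.21 at day 14 (adjusted p = 0.00704), and at day 21 was at 0.06 ± 0.21 (adjusted p = 0.816), or -0.04 without replicate 2. Lama2 was lower at day 21 than at day 14 by a log2 fold change of -0.72 ± 0.21 (adjusted p = 0.0404), or -0.81 without replicate 2, a call lost without any 1 day-14 library or day-21 replicate 3 (adjusted p up to 0.126). Lama4, the chain of vessel walls, passed no test, with 4.39 to 8.25 CPM over all libraries.

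Lamb1, a beta chain found in most basement membranes and the most abundant of these laminin chains, had 132, 119 and 120 CPM in controls, 140, 136 and 135 CPM at day 5, 237, 232 and 239 CPM at day 14, and 207, 156 and 207 CPM at day 21, with no overlap between any toxin group and the controls. It rose by 0.93 ± 0.11 at day 14 (adjusted p = 8.67e-05) and by 0.62 ± 0.11 at day 21 (adjusted p = 0.00298), or 0.73 without replicate 2. Lamc3, a gamma chain of few adult tissues, had 15.7, 13 and 14.9 CPM in controls, 7.72, 9.64 and 7.94 CPM at day 5, 11.1, 11.1 and 11 CPM at day 14, and 8.11, 9.62 and 6.25 CPM at day 21. It lay below the controls in all toxin libraries. It fell by 0.78 ± 0.15 at day 5 (adjusted p = 0.00639) and by 0.86 ± 0.15 at day 21 (adjusted p = 0.00271), or 1.02 without replicate 2. At day 14 it fell by 0.39 ± 0.15 (adjusted p = 0.0427) but rose by 0.33 under library totals alone (adjusted p = 0.0415). The call of the day-14 fall was lost without control replicate 1 or 3 or any 1 day-14 library (adjusted p up to 0.101).

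**Figure D5:**
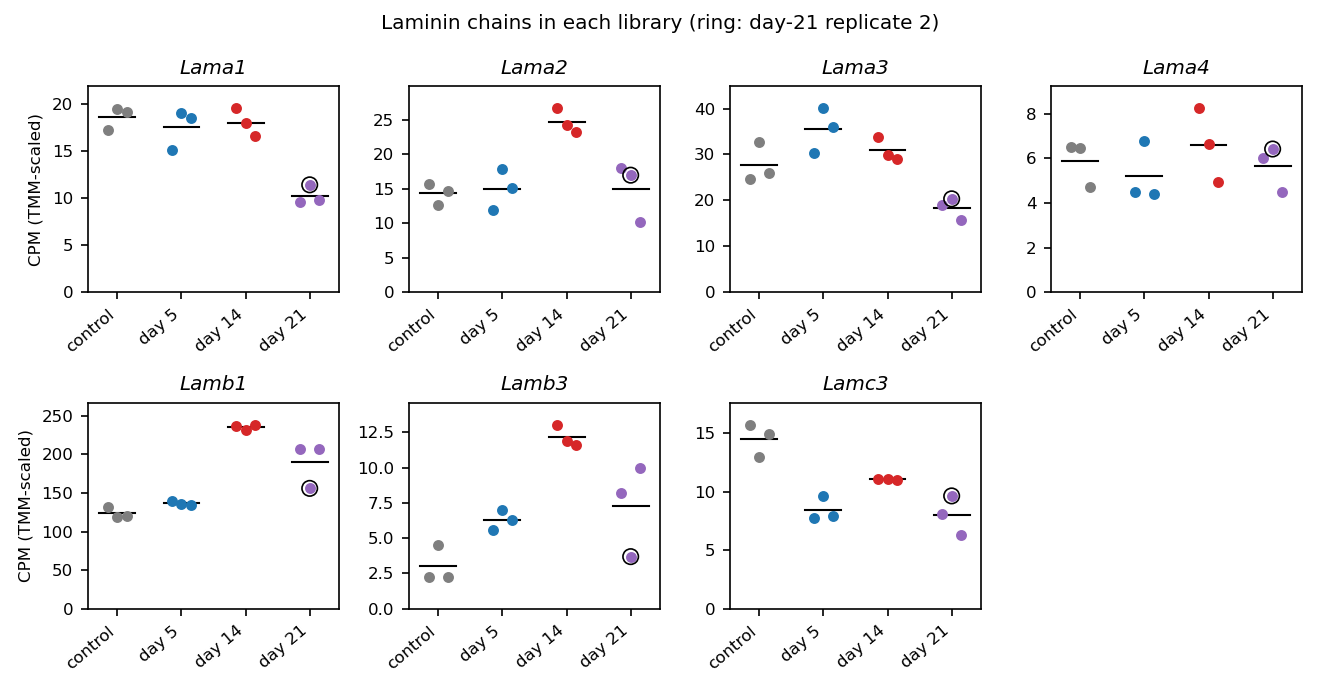
CPM on TMM-scaled library sizes (y axis) of 7 laminin chain genes in each library of the 4 groups (x axis), with the group mean as a line and a ring around day-21 replicate 2. Lamb1 lies at 232 to 239 CPM in the day-14 libraries and at 119 to 132 CPM in controls, while Lama1 and Lama3 lie below all controls in the 3 day-21 libraries.

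Several spans overlapped a gene with more counts than the gene itself, and whether counting used strand is not given in the sources used here. Itga7 overlapped Mettl7b and Lamb3 overlapped Hsd11b1 and G0s2, all on the opposite strand, Itgae overlapped Haspin on the opposite strand and Itga10 overlapped Gm42957 on the same strand. At day 14, Mettl7b fell by 1.93 ± 0.4, Hsd11b1 fell by 1.23 ± 0.24 and Gm42957 fell by 0.95 ± 0.17, while G0s2 was at -0.01 ± 0.23 and Haspin at -0.48 ± 0.22. The part of these neighbours in the counts of Itga7, Lamb3, Itgae and Itga10 was not tested, and the values of these 4 genes are uncertain. Markers of injured tubule, Havcr1, Lcn2 and Krt20, summed to 4.72 to 6.7 CPM in controls, 233 to 415 at day 5, 1150 to 1230 at day 14 and 228 to 767 at day 21, and those of podocytes, Nphs1, Podxl and Wt1, to 192 to 208 CPM in controls, 62.4 to 74.7 at day 5, 63.5 to 66.5 at day 14 and 54.4 to 147 at day 21. Podxl was the largest part of the podocyte sum, with means of 168 CPM in controls, 65.3 at day 5 and 61.7 at day 14. Nphs1 had means of 22.2, 1.51 and 0.493 CPM in these groups, and Wt1 of 8.02, 1.61 and 3.07 CPM. At day 21 Nphs1 had 0.41 and 0.52 CPM in replicates 1 and 3 and 16.5 CPM in replicate 2. The 4 proximal tubule markers summed to 6460 to 7140 CPM in controls, 4320 to 5060 at day 5, 878 to 999 at day 14 and 780 to 4990 at day 21. All 4 were called lower at day 14 and 3 at day 21, beside 28.8% and 18.5% of all tested genes. Without day-21 replicate 2, 4 were called lower at each time, beside 30.9% and 28.4%. The highest podocyte and proximal tubule sums and the lowest injury sum of day 21 were those of replicate 2, none of these markers was at 0 in a whole group, and their part in the results above was not tested.

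Other genes of the adhesion pathway were counted from 4 lists. Of 15 integrin ligands, 13 were tested, and 7 rose at day 5, 10 at day 14 and 9 at day 21, while 2 fell at day 14. These are 53.8%, 76.9% and 69.2% that rose, beside 9.77%, 31.2% and 24.3% of all tested genes, and 15.4% that fell at day 14, beside 28.8%. Vcam1, the ligand of Itga4 integrins, rose by 3.2 ± 0.3 at day 5, 6.45 ± 0.35 at day 14 and 4.1 ± 0.32 at day 21, or 4.38 without replicate 2. Icam1, the ligand of Itgb2 integrins, rose by 2.74 ± 0.2 at day 14. Spp1, osteopontin, rose by 3.14 ± 0.36 at day 5, 4.62 ± 0.38 at day 14 and 3.84 ± 0.37 at day 21, or 4.16 without replicate 2.

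Of 26 genes listed as adhesion adaptors, 7 rose at day 5, 15 rose and 4 fell at day 14, and 9 rose and 5 fell at day 21. The shares that rose were 26.9%, 57.7% and 34.6%, beside 9.77%, 31.2% and 24.3% of all tested genes. The shares that fell at days 14 and 21 were 15.4% and 19.2%, beside 28.8% and 18.5% of all tested genes, so that the falls at day 21 were near the background. Actn1, an actin crosslinker of adhesions, rose by 1.48 ± 0.22 at day 5, 2.56 ± 0.22 at day 14 and 1.5 ± 0.22 at day 21, or 1.74 without replicate 2. Parvg, a parvin of leukocytes, rose by 1.21 ± 0.25 at day 5 and 2.43 ± 0.25 at day 14. Fermt1, the kindlin of epithelium, rose by 1.38 ± 0.12 at day 14. Fermt3, the kindlin of blood cells, rose by 2.54 ± 0.28 at day 14 and 1.78 ± 0.28 at day 21, or 2.08 without replicate 2. Tns3, a tensin, rose by 1.13 ± 0.09 at day 14.

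Of 6 hemidesmosome and tetraspanin partners, 1 rose at day 5, and 4 rose and 1 fell at each of days 14 and 21. The share that rose was 16.7% at day 5 and 66.7% at days 14 and 21, beside 9.77%, 31.2% and 24.3% of all tested genes, and the 1 fall, 16.7%, lies beside 28.8% at day 14 and 18.5% at day 21. Col17a1, the transmembrane collagen that joins Itgb4 in hemidesmosomes, rose by 4.37 ± 0.67 at day 5, 6.44 ± 0.65 at day 14 and 4.48 ± 0.67 at day 21, or 4.85 without replicate 2. Its levels were low, at 0.0301 to 0.119 CPM in controls, 1.06 to 2.29 at day 5, 5.77 to 6.88 at day 14 and 0.61 to 2.75 at day 21. Cd9, a tetraspanin, was at 0.59 ± 0.23 at day 5 (adjusted p = 0.114, and 9.36e-05 without day-21 replicate 2) and rose by 1.66 ± 0.24 at day 14 and 1.45 ± 0.24 at day 21, or 1.73 without replicate 2. Of 8 other laminin partners of the basement membrane, 1 rose and 1 fell at day 5, 6 rose and 1 fell at day 14 and 4 rose at day 21, so that 12.5%, 75% and 50% rose. Col18a1, the precursor of endostatin, rose by 0.94 ± 0.21 at day 5, 1.92 ± 0.21 at day 14 and 1.36 ± 0.21 at day 21, Agrn, agrin, by 2.07 ± 0.26 at day 14 and Bcam, a laminin receptor outside the integrins, by 1.55 ± 0.26 at day 21. Without replicate 2 the day-21 values were 1.57 for Col18a1 and 1.85 for Bcam. Ntn4, a netrin that disrupts laminin networks, fell by 0.32 ± 0.09 at day 5 (adjusted p = 0.0414). Leaving out day-21 replicate 2, the calls at day 5 were 9 higher and 1 lower among the ligands, 15 and 2 among the adaptors, 4 and 1 among the hemidesmosome and tetraspanin partners, and 3 and 1 among the other laminin partners, where 17.4% of all tested genes rose and 14.9% fell. The counts at day 14 did not change. At day 21 they were 10 higher and 1 lower among the ligands, 11 and 5 among the adaptors, 4 and 1 among the hemidesmosome and tetraspanin partners and 5 and 0 among the other laminin partners, where 33.2% of all tested genes rose and 28.4% fell.

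Promoters of 3 genes that rose are shown with matches to the motifs of AP-1 (the dimers of Fos and Jun) and TEAD factors. These factors are known to act on genes of injured and spreading epithelium, whereas Itgax is a leukocyte gene. Their part in the rises was not tested. The windows run from 250 bases before to 50 after the start of RefSeq transcripts in GRCm38.p6, while the counts are on GRCm39, and capitals mark matches on either strand to TGANTCA, the AP-1 motif, or GGAATG, the TEAD motif. Itgax (chr7:128129300-128129599, plus strand) holds an AP-1 match that begins 56 bases before the start, Lamb3 (chr1:193301993-193302292, plus strand) a TEAD match that begins 167 bases before it, and Itga5 (chr15:103366742-103367041, minus strand) neither.
Itgax: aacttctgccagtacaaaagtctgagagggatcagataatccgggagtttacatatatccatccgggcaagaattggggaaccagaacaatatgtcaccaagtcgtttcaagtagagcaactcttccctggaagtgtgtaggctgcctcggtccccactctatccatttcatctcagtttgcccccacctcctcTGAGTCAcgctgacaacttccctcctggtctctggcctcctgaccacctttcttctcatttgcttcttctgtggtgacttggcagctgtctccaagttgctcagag
Lamb3: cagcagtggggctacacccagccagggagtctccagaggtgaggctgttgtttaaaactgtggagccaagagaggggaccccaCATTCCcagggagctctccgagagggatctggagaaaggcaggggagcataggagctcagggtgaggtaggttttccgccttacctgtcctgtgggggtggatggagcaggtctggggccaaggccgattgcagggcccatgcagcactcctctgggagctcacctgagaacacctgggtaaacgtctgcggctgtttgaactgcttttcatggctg
Itga5: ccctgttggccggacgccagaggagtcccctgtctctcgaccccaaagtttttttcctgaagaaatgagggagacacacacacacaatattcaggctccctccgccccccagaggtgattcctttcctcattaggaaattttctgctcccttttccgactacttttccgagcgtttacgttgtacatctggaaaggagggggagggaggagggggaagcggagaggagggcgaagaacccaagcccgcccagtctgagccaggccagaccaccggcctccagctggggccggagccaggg
Of the 32 genes, 19 had an entry, with 22 windows in all. An AP-1 match was in 3 of the windows (of Itga3, Itga9 and Itgax) and a TEAD match in 3 others (of Itga10, Itgb1 and Lamb3), with no overlap between matches, while 7.81% and 14.7% of all 32851 windows held one. A match is a description of letters and not a bound site.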

How the data were processed

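Whole-kidney poly(A) RNA of 12 Pod-TRECK mice, in 4 groups of 3, was sequenced. The deposited values are raw counts per gene that the authors made with fastp 0.20.0 and featureCounts on GRCm39, per the submitters' processing notes. The aligner, the annotation release and the settings for strand and for reads with several matches were not given in the sources used here, so genes that overlap or have close copies are uncertain.

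Genes with low counts were removed with filterByExpr, which left 19821, and TMM factors were computed. All 12 libraries, with 1 coefficient per group, were fitted with edgeR 4.0.16 (limma 3.58.1, R 4.3.3). The quasi-likelihood F test was adjusted by Benjamini-Hochberg over all tested genes and called at 0.05. Standard errors were taken as the size of the log2 fold change over the root of the F statistic. CPM use TMM-scaled library sizes, and levels per kilobase use the gene length in the count table. The scripts were tested on simulated data. P-values measure the spread between these mice.

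The genes and lists were chosen with earlier results of these data known. Genes called in any comparison with an absolute log2 fold change of at least 1 are given in every library, and from each context list the 2 genes with the smallest adjusted p at each time. Alternatives were median-of-ratios size factors, library totals, DESeq2 1.42.0, no filter, a replicate block, only the 6 libraries compared, and omission of each library. Same-numbered libraries of different groups deviated together by more than a correlation of 0.1 in 4 of 18 pairs, so the numbers were not taken to pair the mice. The labels give all libraries the same batch. The values of some genes are not reported here, although totals over all genes include them.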

Additional observations from a re-analysis of the deposited data

Results flagged for a closer look

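For 6 genes the fold changes against control lay on opposite sides of 0 at 2 times, and the difference between those times was called by edgeR's quasi-likelihood test. Between day 14 and day 5, Itga11 differed by a log2 fold change of 3.28 (adjusted p = 0.00118), Itga10 by 0.98 (adjusted p = 0.00357), Itgb5 by 0.75 (adjusted p = 0.000118) and Itgae by 0.68 (adjusted p = 0.0172). Each of these 4 was below 0 against control at day 5, and none of those day-5 values was called in the fit of all libraries, although that of Itgb5, -0.17, was called without day-21 replicate 2 (adjusted p = 0.049). Itgb8 differed by -0.61 (adjusted p = 0.0147), with 0.13 at day 5 and -0.48 at day 14 against control. Lama3 differed between day 21 and day 14 by -0.75 (adjusted p = 0.00853), with -0.6 at day 21 and 0.16 at day 14 against control. The call of Itgae was lost without day-5 replicate 1 or day-14 replicate 2 (adjusted p up to 0.062), and that of Itgb8 without day-14 replicate 3 (adjusted p = 0.0595). Their causes were not tested.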

How the results depend on the processing

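The counts of called genes depended on the setting as follows, in each case beside the values of the report. Under library totals alone, 1 gene was lower at day 14, 2 at day 21 and 1 at day 14 against day 5, and 0 were higher at day 21 against day 14. DESeq2 gave 2 lower at day 5, and the fit with no filter 0 higher at day 21 against day 14. With only the 6 libraries compared, 11 were higher and 2 lower at day 5, 6 and 2 at day 21, and 0 and 5 at day 21 against day 14. Omitting 1 library at a time gave 4 to 12 higher and 1 to 2 lower at day 5, 1 to 3 lower at day 14, 13 to 21 higher at day 21, 1 to 2 lower at day 14 against day 5 and 0 to 2 higher at day 21 against day 14. The causes were not tested. With a replicate block, 6 were higher and 1 lower at day 5, 24 and 3 at day 14, 16 and 5 at day 21, 18 and 2 at day 14 against day 5, and 1 and 12 at day 21 against day 14. The correlations of same-numbered libraries ran from -0.14 to 0.171, which gives the block no ground in a pairing of mice.

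Directions turned in the following cases. Itga7 at day 5 was at -0.0041 with median-of-ratios size factors and -0.0011 with DESeq2. Under library totals alone, log2 fold changes turned to 0.053 for Itga10, 0.10 for Itgae and 0.062 for Lama1 at day 5, to 0.25 for Itgb8, 0.68 for Lama1 and 0.33 for Lamc3 at day 14, to 0.19 for Itgb6 and 0.40 for Lama4 at day 21, to 0.55 for Itga6 and 0.39 for Lama3 at day 14 against day 5, and to -0.088 for Itga7 at day 21 against day 14. Among these, edgeR called Lama1 (adjusted p = 0.000586) and Lamc3 (adjusted p = 0.0415) higher at day 14. Lama3 was called higher at day 14 than at day 5 (adjusted p = 0.032), and the others were not called. With 1 library omitted, the following took both signs. For day 5 against control, Itga11 ran between -0.94 and 0.38, Itga4 ran between -0.0248 and 0.32, Itga7 ran between -0.0938 and 0.0855, Itgae ran between -0.25 and 0.0139, Lama1 ran between -0.18 and 0.0137, Lama2 ran between -0.0917 and 0.20. For day 14 against control, Lama1 ran between -0.14 and 0.00453, Lama4 ran between -0.0293 and 0.33. For day 21 against control, Itgae ran between -0.074 and 0.27, Itgb6 ran between -0.79 and 0.0204, Lama2 ran between -0.0891 and 0.28, Lama4 ran between -0.23 and 0.0777. For day 14 against day 5, Itga6 ran between -0.12 and 0.0187, Lama1 ran between -0.0683 and 0.0939. For day 21 against day 14, Itga7 ran between -0.18 and 0.43, Itgb4 ran between -0.39 and 0.34. Of 155 gene results, 143 kept direction and side of the threshold with DESeq2, 153 with median-of-ratios size factors, 149 with no filter, 147 with a replicate block and 118 with library totals. With only the 6 libraries compared, 117 of 154 did so, and 26 lost their call. With 1 library omitted at a time, 868 of 1023 did so, 99 lost their call and 29 turned direction.

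The shares not divided by gene length were added after seeing the data. With 3 mice a group, and 24 counts in all for Itgad and 2 to 11 per control library for Itga11, small changes of low genes were not detectable at this depth.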
